A study of Mus musculus with 16 samples.

Results

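The nuclear-encoded subunits of the mitochondrial respiratory chain and of the ATP synthase were followed in the livers of male mice with and without PPARβ/δ, the nuclear receptor for fatty acids that Ppard encodes. A gene was included if its symbol matched a naming pattern used for structural subunits of complex I (Nduf), II (Sdh), III (Uqcr), IV (Cox4 to Cox8) or V (Atp5), if it was not a pseudogene, and if a probe set was paired with that symbol alone. Subunits with other symbols were not included. Of 19935 genes tested, 81 met this rule: 35 of complex I, 4 of complex II, 8 of complex III, 17 of complex IV and 17 of complex V. Each liver's RNA was hybridised to its own Affymetrix whole-transcript array, for 9 wild-type mice, 4 fed and 5 fasted, and 7 knockout mice, 4 fed and 3 fasted. All mice were male and of a mixed Sv129/C57Bl/6 background, and fasting lasted 24 h. The labels name the knockout only as PPARβ/δ knockout. The sources used here do not state the allele, the deleted part of the gene or the age of the mice. All groups were anaesthetized with isoflurane, nitrous oxide and oxygen before death, so every value was taken under anaesthesia. The labels call the replicates biological replicates. The series text gives more mice per group than the 3 knockout fasted arrays analysed here.

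The respiratory chain sits in the inner mitochondrial membrane. Complexes I and II feed electrons from NADH and succinate to coenzyme Q, complex III passes them to cytochrome c, complex IV gives them to oxygen, and complex V uses the proton gradient so formed to make ATP. A few core subunits of these complexes are encoded in mitochondrial DNA, and all others are nuclear genes whose products are imported. Several complex IV subunits come in isoforms with their own tissue patterns, among them heart and skeletal muscle forms and a testis form. In the liver, the chain oxidizes the NADH and reduced flavins that β-oxidation of fatty acids yields, a pathway that runs faster during fasting.

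In each mouse, a gene's level is the log2 of its normalized intensity, which allows comparison of mice but not of genes. By this measure 77 of the 81 subunit genes had a mean at or above 2.79, the 40th percentile of all genes, and Cox7b2, Cox8b, Cox8c and Ndufa4l2 lay below it. The 7 measured hepatocyte markers of 8 listed summed to 82.2 to 83.8 in every mouse. Striated muscle markers stood apart in 3 mice: the summed level of the 5 listed, all measured and 1 of them under the dim limit, reached 26.08 and 36.56 in mice 2 and 4 of the wild-type fed group and 27.89 in knockout fasted mouse 1, and was 15.38 to 17.44 in the other 13 mice. Wild-type fasted mouse 5 had a pancreas acinar sum of 19.07 over 3 measured genes, against 9.59 to 12.04 elsewhere. Knockout fed mouse 4 had a brown adipocyte sum of 9.54 over 3 dim genes, against 6.18 to 7.22 elsewhere. Ppard itself was measured at 4.78, 5.50, 5.31 and 4.83 in wild-type fed and between 4.45 and 5.00 in knockout fed mice, so the groups overlapped. Since the deleted part is not given, this probe set does not check the genotype. In whole liver, fewer cells of a type and less RNA per cell cannot be told apart.

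Fasting of wild-type mice raised 2 subunit genes, Cox6b2 and Ndufa7, and lowered 1, Cox6b1, with limma and Benjamini-Hochberg adjustment over all genes at 0.05. Of all genes tested, 9.22% changed in this comparison, 3.30% upward and 5.92% downward. The other 78 subunit genes did not pass. The median difference over the 81 genes was -0.06 on the log2 scale, beside 0.02 over all genes, and 53 of the 81 differences (65.4%) were below 0, beside 43.4% over all genes. Over genes at or above the dim limit, the median was -0.02 and 52.9% were below 0. At an unadjusted p under 0.05 stood 13 subunit genes, 4 higher and 9 lower, beside 22.6% of all genes. The groups did not overlap for 1 gene upward, Cox6b2, and for 3 downward, Cox5a, Cox6b1 and Cox7a1, beside 5.25% and 6.99% of all genes. The 95% confidence interval lay within a 1.5-fold change either way for 73 of the 81 (90.1%, beside 86.4% of all genes). Complex medians were -0.06 for complex I, -0.11 for II, -0.07 for III, -0.06 for IV and -0.04 for V. The estimate itself was within 1.5-fold for 78 of 81, and the 3 beyond it were the complex IV isoforms Cox6b2, Cox7a1 and Cox8b. Without wild-type fasted mouse 1 the count of differences below 0 was 61, and without wild-type fasted mouse 5 it was 46.

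In knockout mice, fasting raised 1 subunit gene, again Cox6b2, and lowered none, where 3.67% of all genes changed, 1.87% upward and 1.80% downward. The median difference was 0.08, beside -0.02 over all genes. A difference above 0 was found for 57 of 81 subunit genes (70.4%), beside 44.7% of all genes and 48.0% of genes at or above the dim limit. Unadjusted p was under 0.05 for 13, beside 15.3% of all genes, and 11 of these were higher. Groups did not overlap for 7 genes upward (Atp5l, Cox4i1, Cox6a1, Cox6b2, Ndufa6, Uqcr10 and Uqcrh, beside 6.17% of all genes) and 4 downward (Atp5k, Atp5mpl, Cox8c and Ndufa8, beside 7.05%). The 8 complex III genes all had a difference above 0, from 0.01 to 0.23, and medians were 0.08 for complex I, 0.02 for II, 0.13 for III, 0.12 for IV and 0.00 for V. The signs depended in part on the mice kept. Without knockout fed mouse 4 the median was 0.03 with 49 above 0, and without knockout fasted mouse 1 it was 0.02 with 46 above 0. Without knockout fed mice 1 and 4 together it was 0.08 with 57 above 0, as with all mice. The interval lay within 1.5-fold for 72 of 81 (88.9%, beside 85.5% of all genes).

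**Figure D1:**
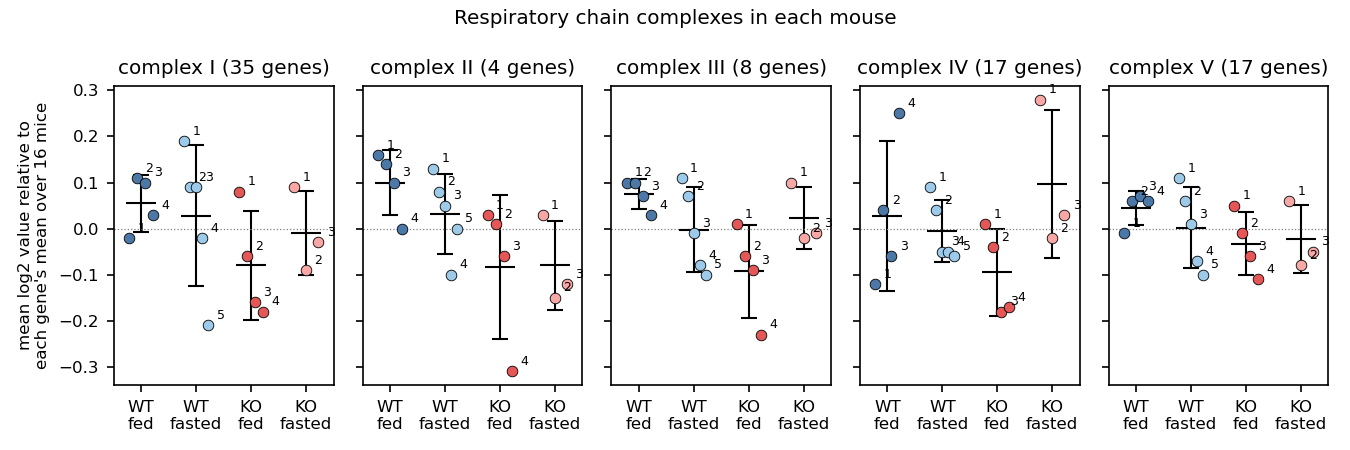
Each numbered point is 1 mouse: its log2 values, each relative to the gene's mean of 16 mice, averaged over the subunit genes of a complex, for wild-type (WT) and knockout (KO) mice, with the group mean and SD. In complex III every knockout fed mouse, at 0.01 and below, lies under every wild-type fed mouse, at 0.03 and above, and fed groups overlap in the other complexes. Knockout fed mouse 4 is the lowest mouse of its group in complexes I, II, III and V, at -0.31 for complex II.

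The knockout comparison in fed mice leaned the other way. No subunit gene passed (limma, Benjamini-Hochberg over all genes), where 0.677% of all genes did (0.451% upward and 0.226% downward), and 19 had an unadjusted p under 0.05, 1 higher and 18 lower, which is 23.5% beside 13.2% of all genes. The 18 that were lower compare with 6.92% of all genes in that direction. Of the 11961 genes at or above the dim limit, 18.1% had an unadjusted p under 0.05, and 1291 had one with a lower level. Of the 81 differences, 67 (82.7%) were below 0, beside 47.7% over all genes and 56.1% over genes at or above the dim limit, and the median was -0.11 beside 0.01. This lean was not particular to the subunit genes. The median was also -0.11 over 77 mitochondrial ribosome proteins and over 46 assembly factors, and -0.04 over 19 tricarboxylic acid cycle genes. By complex, the counts of subunit genes follow. Differences below 0 were found for 30 of 35 genes of complex I, 3 of 4 of complex II, 7 of 8 of complex III, 13 of 17 of complex IV and 14 of 17 of complex V. Every knockout fed mouse lay below every wild-type fed mouse for 10 subunit genes, Atp5l, Atp5o, Atp5pb, Ndufa5, Ndufa6, Ndufs1, Ndufs5, Sdhd, Uqcr10 and Uqcrq, where 3.18% of all genes were apart in this direction, and Cox6b2 alone was apart upward, where 3.53% were. Among genes at or above the dim limit, 559 of 11961 were apart downward. Knockout fed mouse 4 had the lowest level of all 16 mice for 28 of the 81 genes (34.6%), beside 8.54% of genes at or above the dim limit. Without that mouse 64 differences were below 0, the median was -0.07 and the number lower at an unadjusted p under 0.05 was 8 in place of 18. Without knockout fed mice 1 and 4 together, 70 were below 0 and 12 of them had an unadjusted p under 0.05, and without the 3 mice with muscle markers 62 were below 0. The summed level of 8 Kupffer cell markers, all measured, was 50.9 to 51.7 in knockout fed and 45.8 to 47.4 in wild-type fed mice, 2 of the 8 passed, and its part in the result was not tested.

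In fasted mice, knockout and wild-type livers did not differ in any subunit gene by the same test, where 0.537% of all genes did, 0.351% upward and 0.186% downward. Here 6 subunit genes had an unadjusted p under 0.05, 7.41% beside 10.4% of all genes, 4 of them higher. The median was -0.02, the same as over all genes, and Cox6a1 alone had groups that did not overlap, higher in the knockout, where 3.81% of all genes did; none were apart downward, beside 4.44% of all genes. The difference between the 2 fasting responses passed for no subunit gene and for 0.0100% of all genes. Its unadjusted p was under 0.05 for 9 (11.1%, beside 12.2%), 8 of them above 0, and its median was 0.10 beside -0.03, with 61 of 81 above 0. Over genes at or above the dim limit, the median was 0.03 and 54.4% were above 0. It was 0.15 over 77 mitochondrial ribosome proteins and 0.14 over 46 assembly factors. Without knockout fed mouse 4 the number of subunit genes above 0 was 50. Averaged over fed and fasted mice, the knockout had 1 subunit gene higher, Cox6b2, and none lower, where 1.55% of all genes changed, 0.963% upward and 0.587% downward, and 63 of 81 differences (77.8%) were below 0, beside 54.5%. These comparisons share groups with one another, so their signs are not independent.

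**Figure D2:**
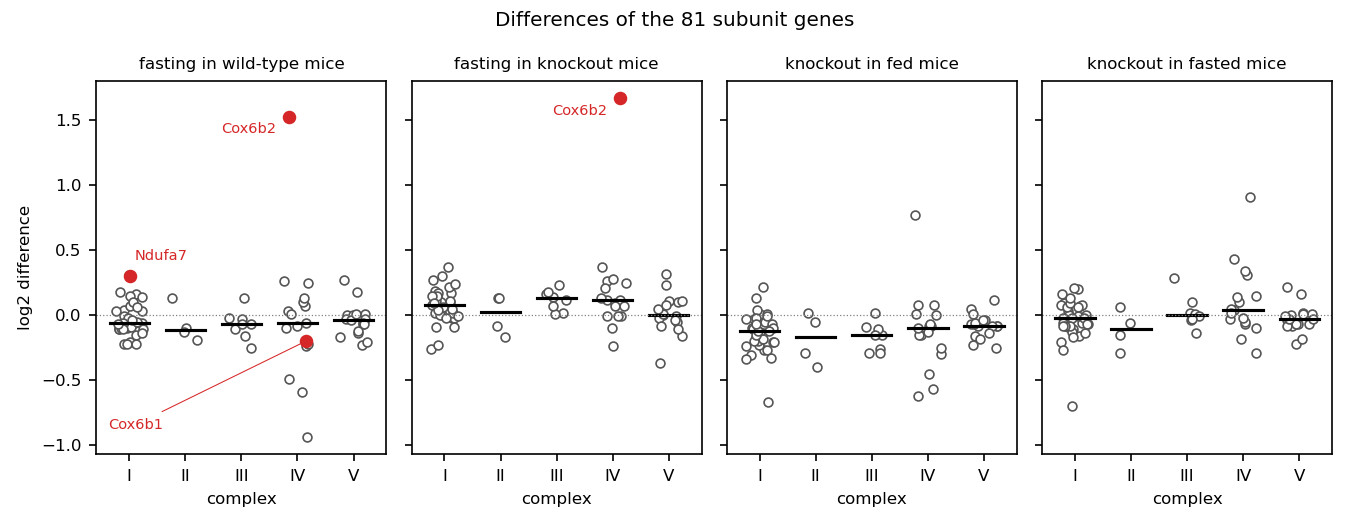
Log2 difference of each of the 81 subunit genes by complex, in 4 comparisons, with the median of each complex as a bar. Filled red points passed limma at an adjusted p of 0.05. Cox6b2 stands at 1.53 and 1.67 in the fasting panels, and most other points lie within 0.5 of 0.

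Cox6b2, which encodes the testis form of cytochrome c oxidase subunit 6B, was the subunit gene with the largest difference in both fasting comparisons and in the mean knockout effect. Wild-type fed mice had levels of 2.97, 2.86, 3.21 and 3.18, and wild-type fasted mice of 5.46, 4.92, 4.17, 4.31 and 4.08. The gene was read by 1 probe set, and its wild-type fed levels lay close above the dim limit of 2.79. Knockout fed mice had 3.91, 3.86, 3.93 and 3.6, and knockout fasted mice 5.45, 5.40 and 5.65. Every fasted mouse lay above every fed mouse of its genotype, and every knockout fed mouse lay above every wild-type fed mouse; among fasted mice, wild-type mouse 1 reached the knockout range and the other 4 lay below it. Fasting raised it by 1.53 ± 0.21 (SE; 95% interval 1.09 to 1.98; 2.90-fold; adjusted p 0.000215) in wild-type and by 1.67 ± 0.24 (1.16 to 2.19; 3.19-fold; adjusted p 0.000998) in knockout mice. Over the alternatives tried, the adjusted p ranged from 5.97e-05 to 0.00917 and from 0.000196 to 0.0184. The difference between these responses was 0.14 ± 0.32, with an interval of -0.54 to 0.82, so a response that differed by up to that much between the genotypes was not resolved. The mean knockout effect was 0.84 ± 0.16 (0.50 to 1.18; 1.79-fold; adjusted p 0.0125), made up of a fed difference of 0.77 ± 0.22 (adjusted p 0.133) and a fasted one of 0.91 ± 0.23 (adjusted p 0.103), neither of which passed. Without wild-type fasted mouse 1, the mouse that reached the knockout range, the fasted difference was 1.13 with an adjusted p of 0.00562. The fasted difference passed under this 1 alternative and not under 16 others, with an adjusted p of up to 0.383. That pass therefore rests on leaving out 1 mouse. Without the 3 mice with muscle markers, the mean effect was 0.83 ± 0.21 with an adjusted p of 0.105.

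Cox6b1 encodes the form of the same subunit that most tissues use, and it lies on the intermembrane face of complex IV. Its levels were 8.61, 8.70, 8.72 and 8.77 in wild-type fed and 8.53, 8.43, 8.60, 8.48 and 8.49 in wild-type fasted mice. The groups did not overlap, by a margin of a single hundredth. Knockout fed mice had 8.58, 8.61, 8.63 and 8.64 and knockout fasted mice 8.65, 8.53 and 8.63, which overlapped. Fasting lowered Cox6b1 in wild-type mice (-0.20 ± 0.06, interval -0.32 to -0.07, adjusted p 0.0498), and 13 of 18 alternatives lost this call (adjusted p 0.0284 to 0.31). In knockout mice the difference was -0.01 ± 0.07 (adjusted p 0.965), and that between the responses, 0.18 ± 0.09, did not pass (adjusted p 0.427).

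The 250 bases before the annotated starts of these isoform genes are printed because the 2 genes moved in opposite directions in wild-type fasting. They come from the RefSeq promoters of GRCm38.p6 and read 5′ to 3′ along the gene, both on the minus strand, Cox6b2 at chr7:4753095-4753344 and Cox6b1 at chr7:30626115-30626364. Capitals mark matches, on either strand, to the CCAAT box (CCAAT, read as ATTGG on the other strand) and to the GABPA motif (CCGGAAG, read as CTTCCGG).
Cox6b2: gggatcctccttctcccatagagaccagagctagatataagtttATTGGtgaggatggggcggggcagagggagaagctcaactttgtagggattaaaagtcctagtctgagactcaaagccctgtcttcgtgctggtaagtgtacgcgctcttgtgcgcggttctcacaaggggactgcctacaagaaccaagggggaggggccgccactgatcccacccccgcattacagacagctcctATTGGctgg
Cox6b1: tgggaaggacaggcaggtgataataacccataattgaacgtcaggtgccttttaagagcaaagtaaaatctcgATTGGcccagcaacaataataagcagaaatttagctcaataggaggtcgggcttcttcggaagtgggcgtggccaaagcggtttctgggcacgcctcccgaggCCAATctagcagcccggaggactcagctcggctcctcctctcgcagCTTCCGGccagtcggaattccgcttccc
Cox6b2 held CCAAT matches that began 206 and 9 bases before the start, and none for NRF1, GABPA, YY1, ERR or the PPAR:RXR direct repeat. Cox6b1 held CCAAT matches at 177 and 74 bases and a GABPA match at 28 bases before the start. None of these matches overlap. A match describes letters, not a bound site. The genes beside Cox6b2 on the chromosome, Fam71e2, Kmt5c and Il11, passed in no comparison. Only Kmt5c, at 5.62 to 6.53, was above the dim limit of 2.79, with a difference of -0.22 ± 0.10 in wild-type fasting, and Fam71e2 and Il11 lay below that limit in every mouse.

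**Figure D3:**
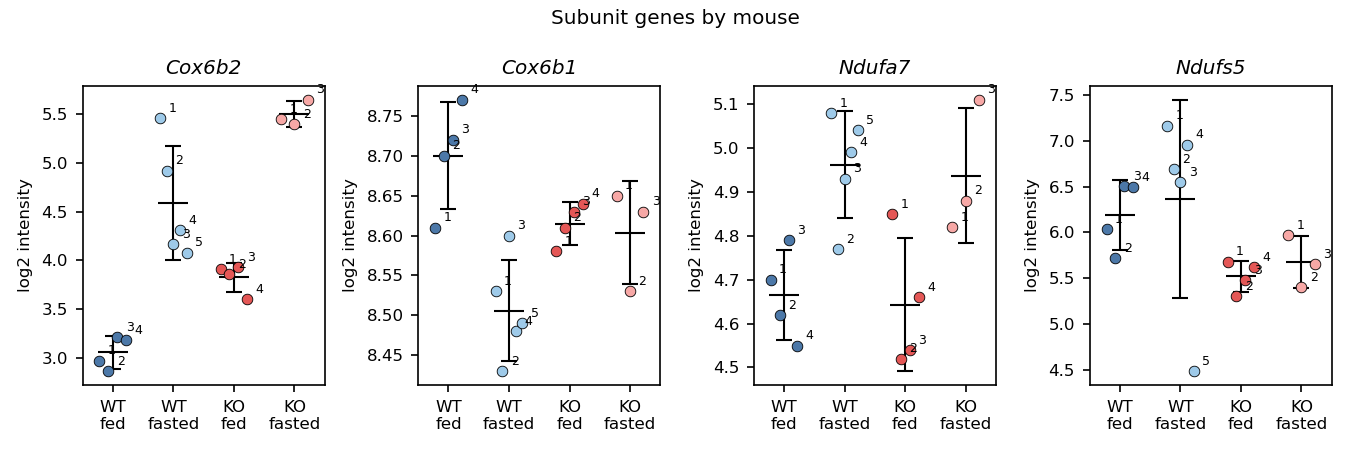
Log2 intensity of Cox6b2, Cox6b1, Ndufa7 and Ndufs5 in each mouse, numbered within its group, with group mean and SD; each panel has its own vertical range. Cox6b2 rises with fasting in both genotypes, and Ndufs5 in wild-type fasted mouse 5 lies at 4.48, below all other mice.

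Complex I had 35 genes. Ndufa7, an accessory subunit of the matrix arm, was measured at 4.70, 4.62, 4.79 and 4.55 in wild-type fed and 5.08, 4.77, 4.93, 4.99 and 5.04 in wild-type fasted mice. Only wild-type fasted mouse 2 fell within the fed range. Fasting raised it in wild-type mice (0.30 ± 0.09, interval 0.11 to 0.49, 1.23-fold, adjusted p 0.0441; 0.0239 to 0.313 over the alternatives, of which 13 of 18 lost the call). The knockout difference had the same size, 0.30 ± 0.10, from 4.85, 4.52, 4.54 and 4.66 fed to 4.82, 4.88 and 5.11 fasted, and did not pass (adjusted p 0.136). The difference between the responses was 0.00 ± 0.13. None of the core subunits named next passed. Ndufs1, the largest subunit, with iron-sulfur clusters, had a difference of -0.22 in wild-type fasting (adjusted p 0.0905) and -0.02 in knockout fasting (adjusted p 0.963). It was 8.48, 8.52, 8.60 and 8.61 in wild-type fed and 8.61, 8.29, 8.30, 8.26 and 8.24 in wild-type fasted mice, so that 1 fasted mouse matched the highest fed value and the other 4 lay below all fed mice. Ndufv1, which binds the flavin and NADH, differed by 0.10 and 0.05, and neither passed.

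The supernumerary subunit Ndufa6 was among the genes of lowest p for the knockout in fed mice. It stood at 7.89, 8.0, 8.0 and 8.07 in wild-type fed and 7.82, 7.83, 7.56 and 7.66 in knockout fed mice, without overlap, and its difference of -0.27 ± 0.07 did not pass (adjusted p 0.108). Wild-type fasted mice had 7.93, 7.89, 7.75, 7.85 and 7.76 and knockout fasted mice 7.88, 7.90 and 7.94, and the difference between its fasting responses was 0.34 ± 0.11 (adjusted p 0.268). Ndufa3, another accessory subunit, had a mean knockout effect of -0.23 ± 0.07 (adjusted p 0.161).

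Ndufs5, an accessory subunit on the intermembrane side, was chosen after its values were seen. Wild-type mice had 6.04, 5.72, 6.51 and 6.50 when fed and 7.17, 6.69, 6.55, 6.96 and 4.48 when fasted. Knockout mice had 5.68, 5.30, 5.48 and 5.62 when fed and 5.97, 5.40 and 5.65 when fasted. Apart from wild-type fasted mouse 5, the lowest of all 16, and wild-type fed mouse 2, every wild-type mouse lay above every knockout mouse. With all mice the mean knockout effect was -0.68 ± 0.29 (adjusted p 0.387). Without wild-type fasted mouse 5 it was -0.92 ± 0.13 (adjusted p 0.00232), the fasted difference was -1.17 ± 0.19 (adjusted p 0.0159) and wild-type fasting gave 0.65 ± 0.18 (adjusted p 0.0367), so this call rests on leaving out 1 mouse after its value was seen. A second probe set, which is paired with Ndufs5 and a pseudogene copy, differed by -0.46 between the genotypes in fed and by -0.23 in fasted mice. It differed by -0.03 in wild-type fasting, with all mice. Its wild-type levels were 6.09, 5.88, 5.84 and 5.68 when fed and 6.24, 5.96, 6.0, 5.89 and 5.13 when fasted. The lowest of these, 5.13, was wild-type fasted mouse 5. That mouse also had the high pancreas acinar sum given above, whose part in the result was not tested. The 250 bases before the Ndufs5 start (RefSeq, GRCm38.p6, chr4:123718187-123718436, minus strand, 5′ to 3′ along the gene) are printed for the NRF1 match in capitals, the letters GCGCA and GCGC with 1 free base between them, which begins 98 bases before the start. NRF1, nuclear respiratory factor, is a regulator of many respiratory chain genes.
Ndufs5: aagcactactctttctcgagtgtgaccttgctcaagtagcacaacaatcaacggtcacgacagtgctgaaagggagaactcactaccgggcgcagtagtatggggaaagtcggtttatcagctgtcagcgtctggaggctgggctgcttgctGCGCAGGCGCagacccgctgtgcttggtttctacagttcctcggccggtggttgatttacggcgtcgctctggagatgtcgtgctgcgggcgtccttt

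Complex II, succinate dehydrogenase, has 4 subunits, all nuclear: the flavoprotein Sdha, the iron-sulfur protein Sdhb and the membrane anchors Sdhc and Sdhd. None passed in any comparison. Sdha was 9.94, 10.00, 10.07 and 9.94 in wild-type fed and 9.94, 9.82, 9.70, 9.82 and 9.73 in wild-type fasted mice, a difference of -0.19 (adjusted p 0.108), and -0.08 in knockout mice. In wild-type mice 4 of 5 fasted values lay below all fed values. Sdhb went the other way in sign, by 0.13 in both genotypes. It had the lowest p among the subunit genes that did not pass for the mean knockout effect, at -0.29 ± 0.08 (interval -0.45 to -0.13; adjusted p 0.0732). Wild-type levels were 8.30, 8.24, 8.24 and 8.07 when fed and 8.38, 8.40, 8.46, 8.20 and 8.27 when fasted, and knockout levels were 8.20, 7.91, 7.93 and 7.64 when fed and 8.24, 7.95 and 7.97 when fasted. Mouse 1 of each knockout group lay within the wild-type range and the other 5 knockout mice below all wild-type mice. Sdhd, named after its values were seen, was 8.30, 8.45, 8.32 and 8.16 in wild-type fed and 8.11, 8.11, 7.90 and 7.50 in knockout fed mice, apart in every mouse, with a difference of -0.40 ± 0.12 that did not pass (adjusted p 0.156).

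In complex III, the cytochrome bc1 complex, 8 genes matched the symbol rule and none passed. Cyc1, cytochrome c1, does not match the rule by its symbol and is given below with the electron carriers. The complex III core protein Uqcrc1 differed by 0.13 with fasting in wild-type and by 0.14 in knockout mice, and the Rieske iron-sulfur protein Uqcrfs1 by -0.07 and 0.07. Uqcrq, a small subunit bound to cytochrome b, had the lowest p of all 81 genes for the knockout in fed mice. It stood at 8.22, 8.21, 8.29 and 8.14 in wild-type fed and 8.12, 7.89, 7.86 and 7.84 in knockout fed mice, without overlap, and the difference was -0.29 ± 0.07 (adjusted p 0.0847). In fasted mice the genotypes overlapped, with 8.13, 8.20, 8.10, 8.14 and 8.14 in wild-type and 8.19, 8.14 and 7.99 in knockout mice. The difference between the fasting responses was above 0 for all 8 complex III genes, with a median of 0.22, and passed for none.

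Complex IV, cytochrome c oxidase, held the isoform sets. Cox4i1, the common form of the largest nuclear subunit, was 8.42, 8.50, 8.32 and 8.28 in knockout fed and 8.69, 8.66 and 8.58 in knockout fasted mice. The groups did not overlap. Its difference of 0.26 ± 0.07 did not pass (adjusted p 0.0511). It passed under 4 alternatives and not under 13 others (adjusted p 0.0253 to 0.276). In wild-type mice it was 8.52, 8.46, 8.58 and 8.56 fed and 8.59, 8.64, 8.61, 8.53 and 8.66 fasted, which overlapped, a difference of 0.07. Its lung isoform Cox4i2 differed by 0.03 and -0.01. Cox5a, a subunit on the matrix side, differed by -0.24 in wild-type (adjusted p 0.172) and 0.12 in knockout fasting. Cox6a1, the liver form of subunit 6A, stood at 8.39, 8.37 and 8.43 in knockout fasted and 8.11, 8.10, 7.87, 8.13 and 8.25 in wild-type fasted mice, apart in every mouse, with a difference of 0.31 ± 0.10 that did not pass (adjusted p 0.289). Cox7a2, the liver form of subunit 7A, differed by -0.22 and -0.01 with fasting, and Cox7a2l, which joins complexes III and IV into supercomplexes, by 0.25 (adjusted p 0.109) and 0.28 (adjusted p 0.192). Cox8a differed by 0.26 and 0.21. Ndufa4, counted by its symbol with complex I and known as a complex IV subunit, differed by -0.08 and 0.01, and its dim relative Ndufa4l2 by -0.09 and 0.06. Cox8c, another testis isoform and dim here, differed by -0.29 ± 0.10 between the genotypes in fasted mice (adjusted p 0.315).

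The heart and skeletal muscle isoforms Cox7a1, Cox8b and Cox6a2 were high in the mice with muscle markers. For Cox7a1, wild-type mice had 3.82, 4.48, 3.96 and 6.08 when fed and 3.55, 3.75, 3.63, 3.6 and 3.68 when fasted, and knockout mice 3.95, 4.05, 3.85 and 4.18 when fed and 4.75, 3.69 and 3.79 when fasted. Its highest 3 values came from wild-type fed mice 4 and 2 and knockout fasted mouse 1. In the same mice Ckm, muscle creatine kinase, was 8.53, 6.42 and 7.58, and in the other 13 it was at most 3.54. Cox8b reached 4.10 in wild-type fed mouse 4, 2.88 in mouse 2 and 3.42 in knockout fasted mouse 1, and Cox6a2 reached 4.77, 3.54 and 3.75. Wild-type fasting gave -0.94 ± 0.33 for Cox7a1 (adjusted p 0.0957), -0.59 for Cox8b (adjusted p 0.204) and -0.49 for Cox6a2 (adjusted p 0.324). Without the 3 mice these became -0.24 ± 0.10 (adjusted p 0.201), -0.10 and 0.10. The difference between the fasting responses moved likewise, from 1.01 to -0.03, from 0.96 to 0.14 and from 0.60 to -0.24. The large values of these 3 genes were thus not seen without the 3 mice.

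**Figure D4:**
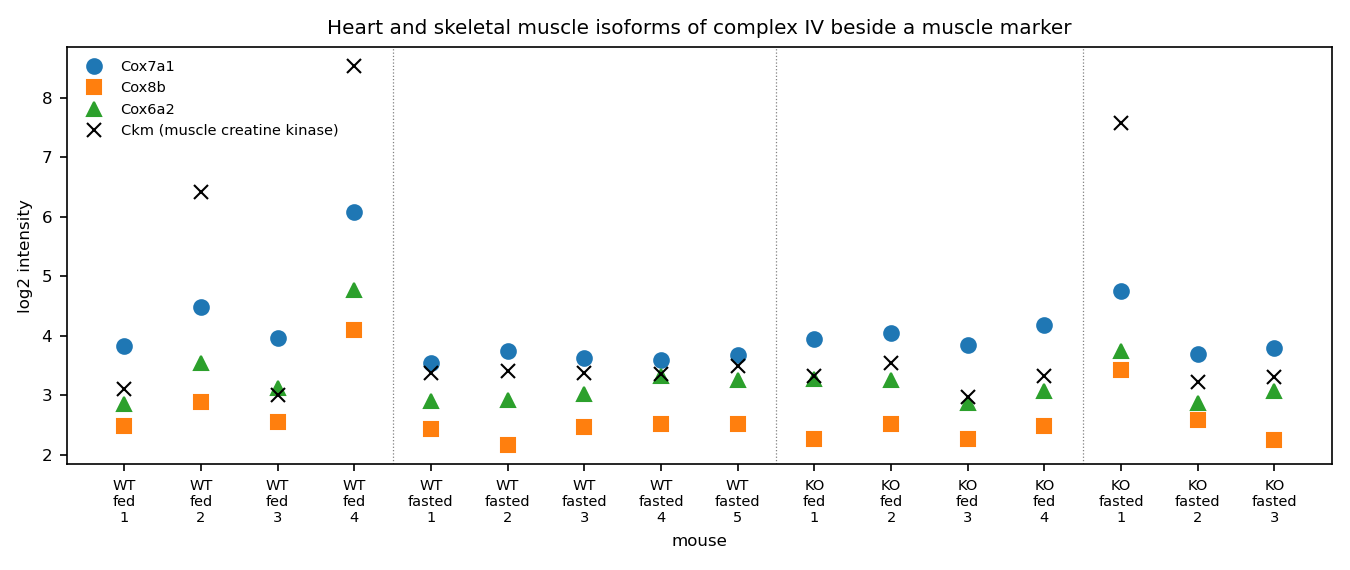
Log2 intensity of Cox7a1, Cox8b and Cox6a2 and of the muscle marker Ckm in each mouse (WT wild-type, KO knockout). Ckm reads 6.42 and 8.53 for mice 2 and 4 of the wild-type fed group and 7.58 for knockout fasted mouse 1, where the 3 isoforms are also highest.

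No gene of complex V, the ATP synthase, passed in any comparison. Atp5a1 and Atp5b, the subunits of the catalytic head, differed with fasting by -0.07 (adjusted p 0.591) and 0.00 ± 0.08 in wild-type and by -0.05 (adjusted p 0.839) and 0.00 ± 0.10 in knockout mice. The interval for Atp5b ran from -0.18 to 0.18 in the first case and from -0.20 to 0.21 in the second. Atp5b stood at 10.91, 10.96, 10.86 and 10.83 in wild-type fed and 11.01, 11.00, 10.94, 10.73 and 10.78 in wild-type fasted mice, on both sides of the fed values. The 3 genes for the same membrane rotor subunit did not move alike: Atp5g1 differed by -0.21 and -0.16, Atp5g2 by 0.27 (adjusted p 0.161) and 0.23 (adjusted p 0.428), and Atp5g3 by 0.00 and 0.01. None of these passed. Atp5l, subunit g of the membrane part, was 7.07, 7.09, 7.09 and 6.99 in knockout fed and 7.20, 7.47 and 7.47 in knockout fasted mice, apart in every mouse. In wild-type mice it was 7.33, 7.12, 7.42 and 7.35 fed and 7.22, 7.19, 7.03, 7.24 and 7.13 fasted, which overlapped. The knockout fasting difference of 0.32 ± 0.09 did not pass (adjusted p 0.0581). It passed under 3 alternatives and not under 14 others (adjusted p 0.0286 to 0.297). The difference between the responses was 0.46 ± 0.12 (adjusted p 0.191). All 6 probe sets paired with Atp5l gave a knockout fasting difference of 0.26 to 0.40. Probe sets of near-identical copies can read one another, so these 6 are not independent.

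Beyond the group differences, many subunit genes varied together among mice of 1 group, and part of this variation was shared with other genes. After each gene's group means were taken off, the first component of 74 genes (those at or above the dim limit, without Cox7a1, Cox6a2 and Cox6b2) carried 52.6% of their within-group variance. Of the 74, 27 followed it with a correlation above 0.7 over the 16 mice (36.5%), beside 4.84% of all genes at or above the dim limit. Over the 16 mice the scores had a correlation, in size, of 0.67 with the second and 0.36 with the first component of all genes at or above the dim limit, which include the subunit genes. The subunit genes built the component, so this is a description, and the genes that followed it were chosen after their values were seen. The closest were Cox7b (0.97), Ndufc1 (0.96), Cox5b (0.95), Ndufb6 (0.95), Ndufb9 (0.92), Ndufb8 (0.92), Ndufs7 (0.91) and Atp5d (0.91), subunits of complexes I, IV and V, while Uqcrh, the hinge protein of complex III, ran against it (-0.77). Scores were 1.37, 1.07, 0.65, -0.81 and -2.29 in wild-type fasted mice, 1.37, 0.04, -0.57 and -0.85 in knockout fed mice and 1.39, -0.81 and -0.58 in knockout fasted mice. In wild-type fed mice they ran from -0.38 to 0.60. Ndufb9 shows the size: 8.32, 8.52, 8.45, 7.68 and 7.69 in wild-type fasted mice, a spread within 1 group wider than any of its group differences, of which the largest was 0.37. The SD of the all-subunit mean was 0.11 among wild-type fasted and 0.10 among knockout fed and knockout fasted mice, beside 0.05 among wild-type fed mice.

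**Figure D5:**
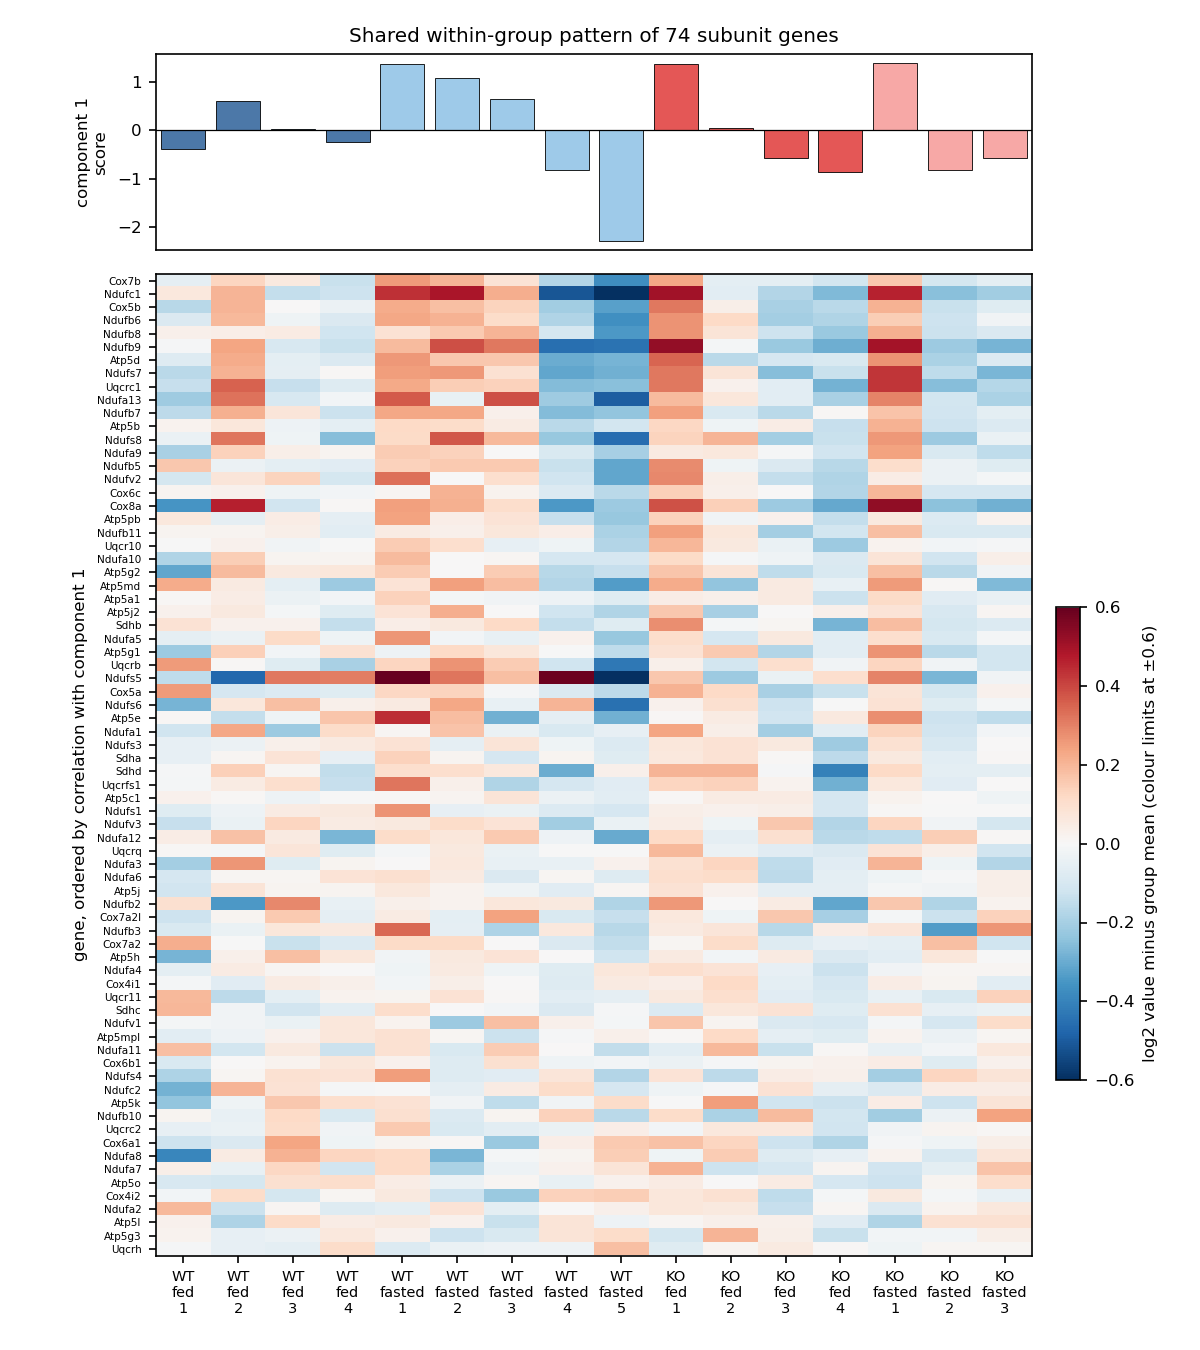
Top, score of each mouse on the first component of the within-group deviations of 74 subunit genes. Bottom, deviation of each gene's log2 value from its group mean, genes ordered by their correlation with the component and colours ending at ±0.6. Wild-type fasted mouse 5, at -2.29, is low in most of the upper genes, and wild-type fasted mouse 1, knockout fed mouse 1 and knockout fasted mouse 1 are high.

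RefSeq promoters of 66 subunit genes were searched on both strands of the 250 bases before the start, beside those of 15612 genes. The NRF1 motif (GCGCA, 1 free base, GCGC) was found in 12 (18.2%, beside 6.41% of genes), and the GABPA motif CCGGAAG in 12 (18.2%, beside 10.7%). CCAAT was found in 29 (43.9%, beside 38.8%), the YY1 motif AAGATGGC in 1 (1.52%, beside 1.85%) and the ERR motif TCAAGGTCA in 1, Atp5g3 (1.52%, beside 0.333%). The PPAR:RXR direct repeat (AGGTCA, 1 free base, AGGTCA) was found in none of the 66 and in 7 of all genes (0.0448%). Sdhd, Cox6a1 and Atp5h held both NRF1 and GABPA matches.

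Of 46 assembly factors of these complexes, which are not subunits themselves, 6 (13%) fell and none rose in wild-type fasting, with a median of -0.17, where 5.92% of all genes fell and 3.30% rose. Ndufaf6, a complex I assembly factor, went from 4.69, 4.98, 4.74 and 4.71 to 3.97, 4.51, 4.40, 3.84 and 3.91 without overlap (-0.66 ± 0.13, adjusted p 0.00365), Cox18, which inserts a complex IV subunit into the membrane, fell by 0.54 (adjusted p 0.00726) and Ndufaf7 by 0.48 (adjusted p 0.00524). In knockout fasting, where 1.87% of all genes rose and 1.80% fell, 1 rose, the complex III factor Uqcc3 (0.53, adjusted p 0.0342). In fed mice 1 (2.17%) was lower in the knockout, beside 0.226% of all genes: Ndufaf2 (-0.65 ± 0.14, adjusted p 0.0409). Of 77 mitochondrial ribosome proteins, which make the mitochondrially encoded subunits, 8 (10.4%) fell, beside the same 5.92% of all genes, and none rose in wild-type fasting, among them Mrps27 (-0.73, adjusted p 0.0158), Mrpl1 (-0.43, adjusted p 0.00943) and Mrps30 (-0.41, adjusted p 0.0199). None changed in knockout fasting, where 1.80% of all genes fell. The difference between the fasting responses passed for no assembly factor and no mitochondrial ribosome protein. Mrpl20 was lower in the mean knockout effect (-0.48, adjusted p 0.00492), where 0.587% of all genes were. The mitochondrially encoded subunits measured, listed as COX2 and ND3, differed by -0.08 ± 0.06 and -0.03 in wild-type and by 0.09 ± 0.07 and 0.08 in knockout fasting, and neither passed in any comparison.

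Among 23 electron carriers and coenzyme Q genes, 2 (8.70%) rose and 4 (17.4%) fell in wild-type fasting, beside 3.30% and 5.92% of all genes. Etfdh, which brings electrons from β-oxidation to coenzyme Q, rose in both genotypes, by 0.46 (adjusted p 0.00307) and 0.51 (adjusted p 0.00951), and Etfb, a subunit of the flavoprotein that serves it, rose by 0.21 in wild-type mice. The coenzyme Q synthesis genes Coq8a, Coq5 and Pdss2 fell by 0.65 (adjusted p 0.00578), 0.51 (adjusted p 0.007) and 0.41, and Sqor, which passes electrons from sulfide to coenzyme Q, by 0.47. In fasted mice Coq5 was higher in the knockout (0.64, adjusted p 0.0248), and Gpd2 was lower in the mean knockout effect (-0.49, adjusted p 0.0494). Cycs, cytochrome c, differed by -0.11 and -0.09 with fasting, and Cyc1, cytochrome c1, by -0.19 and 0.08. None of these passed. Of 19 tricarboxylic acid cycle genes, 1 (5.26%) rose and 3 (15.8%) fell in wild-type fasting, beside the same shares of all genes: Pcx, pyruvate carboxylase, rose by 0.73 (adjusted p 0.00108), Cs, citrate synthase, fell by 0.49 (adjusted p 0.0082), and the pyruvate dehydrogenase subunits Pdhb and Pdha1 by 0.40 (adjusted p 0.0115) and 0.32. None changed in knockout fasting, where 3.67% of all genes did, and none passed for the difference between the fasting responses.

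Of 28 regulators of mitochondrial biogenesis, 3 (10.7%) rose and 2 (7.14%) fell in wild-type fasting, beside 3.30% and 5.92% of all genes, and 4 (14.3%) rose in knockout fasting, beside 1.87%. Whether the share of any of these lists differs from that of all genes or of the subunit genes was not tested. Ppara, the fatty acid receptor that drives the hepatic fasting program, rose by 1.00 (adjusted p 0.00125) and 0.90 (adjusted p 0.0154), the coactivator gene Ppargc1b by 0.63 (adjusted p 0.0141) and 0.68 (adjusted p 0.0382) and the mitochondrial deacetylase gene Sirt3 by 0.36 (adjusted p 0.0197) and 0.53 (adjusted p 0.0087). Tfb2m, a mitochondrial transcription factor, rose in knockout mice (0.62, adjusted p 0.000716). Ppard and Gabpb1 fell in wild-type mice, by 0.54 (adjusted p 0.025) and 0.51 (adjusted p 0.0249), and Pparg was lower in the mean knockout effect (-0.36, adjusted p 0.0292). Ppargc1a differed by 0.66 ± 0.29 (adjusted p 0.179) and 0.83 ± 0.32 (adjusted p 0.211), Nrf1 by -0.19 and 0.29, Gabpa by -0.23 and 0.14, Tfam by 0.12 and 0.54 (adjusted p 0.0668) and Esrra by 0.26 and 0.17, and none of these passed. Of 17 adenine nucleotide and proton carriers, 1 (5.88%) rose and 1 (5.88%) fell in wild-type fasting, beside 3.30% and 5.92% of all genes. In fed mice 1 (5.88%) was higher in the knockout, beside 0.451% of all genes. Nnt, the transhydrogenase that spends the proton gradient to make NADPH, had wild-type levels of 7.52, 6.78, 6.92 and 7.56 when fed and 8.23, 8.35, 8.37, 8.35 and 8.24 when fasted, and knockout levels of 8.24, 8.10, 8.09 and 7.96 when fed and 8.46, 8.49 and 8.37 when fasted. The wild-type fed mice lay below all others. It rose in wild-type fasting (1.11 ± 0.13, adjusted p 5.6e-05), was higher in knockout fed mice (0.90 ± 0.14, adjusted p 0.00538), and the difference between its fasting responses did not pass (-0.77 ± 0.20, adjusted p 0.198). By limma, Nnt did not pass in knockout fasting (0.34, adjusted p 0.273) and was higher in the mean knockout effect (0.52, adjusted p 0.0126). Slc25a23, a carrier of ATP and magnesium, fell in wild-type fasting (-0.64, adjusted p 0.0127).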

How the data were processed

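The authors deposited 1 table of normalized intensity values, made with RMA per the submitters' processing notes (version not given in the sources used here). It holds 35519 probe sets on 16 arrays, of which 21780 are paired with 1 symbol, 1605 with several and 12134 with none. Array medians of intensity were 8.08 to 8.61; the number of arrays limits the precision. Log2 was taken, and the highest-mean probe set with 1 symbol stood for a gene, which left 19935. With limma 3.58.1 in R 4.3.3 (lmFit, eBayes), 1 fit of 4 group means (12 residual, 4.55 prior degrees of freedom) gave 6 contrasts, two-sided, Benjamini-Hochberg adjusted over all genes, changed at 0.05. Errors are SE of the fit unless called SD. Tests were checked on simulated data. Genes were named by rule: the largest changes, the 3 of lowest p where fewer than 3 passed, isoform sets, core subunits and changed genes of the context lists; others are said to be chosen later. The subunit genes, lists and rules were chosen with earlier results of these data known. The RefSeq table of GRCm38.p6 holds 87 protein-coding symbols that match the rule; some of them were not analysed here. Alternatives were quantile normalization, centring, a dim filter, array weights, probe sets by their median, robust variance with an intensity trend, a block on replicate numbers, the contrast's groups alone, and leaving out mice. Leaving out the 3 mice with muscle markers was added after seeing the data.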

Additional observations from a re-analysis of the deposited data

Results flagged for a closer look

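Of 93 pairs of a named subunit gene and a group of 4 or 5 mice, 8 had 1 mouse far from the others by Dixon's test; chance flags about 1 in 20 groups. For Atp5a1, knockout fed mouse 4 was at 10.47, with the others at 10.63 to 10.65. The same mouse was low for Ndufs1, at 8.34 beside 8.47 to 8.48. Ndufs1 was also high in wild-type fasted mouse 1, at 8.61 beside 8.24 to 8.30. Cox5a was 7.90 in wild-type fed mouse 1, beside 7.54 to 7.57, and Uqcrc1 was 9.50 in wild-type fed mouse 2, beside 9.01 to 9.07. Uqcrq was 8.12 in knockout fed mouse 1, beside 7.84 to 7.89. Without that mouse its knockout difference in fed mice was -0.35 with an adjusted p of 0.0411 (limma). Without knockout fed mouse 4 it was -0.26 with an adjusted p of 0.211. Uqcrq passed under 1 alternative and not under 17 others, so this pass rests on leaving out 1 mouse flagged from its value. The dim genes Cox8b, at 2.16 in wild-type fasted mouse 2 beside 2.43 to 2.51, and Cox8c, at 2.56 in wild-type fed mouse 3 beside 2.72 to 2.74, were flagged near the floor of the arrays.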

How the results depend on the processing

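Counts of changed subunit genes moved in 5 of the 6 comparisons. No difference that passed with all mice changed sign; the median for the knockout in fasted mice, -0.02, was 0.01 without wild-type fasted mouse 1, and Cox7a1 and Cox6a2, which did not pass, had differences that changed sign without the 3 mice with muscle markers. For wild-type fasting the count of 3 was 1 under an intensity trend with robust variance and 1 without the 3 mice with muscle markers, and leaving out 1 mouse gave 1 to 3. For knockout fasting the count of 1 became 2 with centred arrays, 3 with the median of probe sets, 3 with array weights and 2 without the 3 mice, with 1 to 2 when 1 mouse was left out. For the knockout in fed mice the count of 0 became 1 in the fit of the 2 groups alone, where Cox6b2 passed (adjusted p 0.0187), and 0 to 1 without 1 mouse; in fasted mice it was 0 to 1 without 1 mouse. For the mean knockout effect the count of 1 became 2 with array weights, 0 without the 3 mice and 1 to 2 without 1 mouse. Over all genes at or above the dim limit, 6 of 21 pairs of mice with the same number had a correlation of deviations over 0.1 (-0.253 to 0.231), so the numbers were not taken to pair mice. Over the 74 subunit genes of the shared component it was 11 of 21 (-0.383 to 0.642), and mouse 1 scored alike in 3 groups (1.37, 1.37 and 1.39) but at -0.38 in wild-type fed mice. With the replicate block the counts were 3 and 1 for fasting in wild-type and knockout mice, 2 and 1 for the knockout in fed and fasted mice, 0 for the difference of responses and 4 for the mean knockout effect. The block's additional calls were Ndufs5, Sdhd and Sdhb. Number 5 occurs in the wild-type fasted group alone, so the block takes that mouse out of the group differences. Ndufs5 differed by 0.65 in wild-type fasting with the block and by 0.65 without wild-type fasted mouse 5. Its call under the block is therefore not separate from leaving out that mouse. The medians over the 81 genes moved by less than the spread between mice, an SD within groups of 0.0885, under all alternatives run. That limit is larger than most of the medians themselves, so it does not show that they were stable. For knockout fasting the median ranged from 0.02 to 0.12. Cox6b2 kept its fasting calls in all 18 and 17 alternatives. With 3 to 5 mice a group, 90 of the 92 subunit differences of size 0.2 to 0.4 did not pass, so differences of that size were mostly not resolved. The causes of these moves were not tested.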
